A study of Mus musculus with 12 samples.

Results

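Leukocyte adhesion receptors were described from 9 of the 23420 genes of the deposited count table, taken by name. They comprise the β2 integrin chain Itgb2 with its α partners Itgam, Itgal and Itgax, the α4 chain Itga4 with its β partners Itgb1 and Itgb7, the selectin ligand Selplg (PSGL-1) and the hyaluronan receptor Cd44. All 9 passed the filter on low counts and were among the 9742 genes tested. RNA was sequenced from M-MDSCs (monocytic myeloid-derived suppressor cells) sorted as CD11b+Ly6G-Ly6Chi cells from bone marrow, the tissue being labelled tibia, of male C57BL/6JNIA mice without any transgene or treatment. Each mouse gave 1 library, and the 6 aged mice were 24 months and the 6 young mice 6 months old. CD11b, the protein made from Itgam, was used to gate every cell, so the presence of Itgam is a property of the sort in both ages.

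An integrin is a heterodimer of an α and a β chain that both cross the membrane, and each chain needs its partner to reach the cell surface. Leukocytes hold their integrins in a bent, inactive form until talin and kindlin, recruited through Rap1, open them, after which β2 integrins bind ICAMs, complement fragments and fibrinogen and α4 integrins bind VCAM-1, fibronectin or MAdCAM-1. Selectin ligands such as PSGL-1 start the rolling of a leukocyte on endothelium before integrins arrest it, and in bone marrow α4β1 and CD44 are known for holding hematopoietic cells to stroma and hyaluronan.

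Library totals ranged from 8737941 to 16300374 counted fragments in aged mice and from 4613239 to 9079237 in young mice. Transcripts of neutrophil granules were abundant in all libraries, with Ngp at 24870 to 44390 CPM (counts of a gene relative to the scaled library total). The monocyte genes Ccr2, at 5.03 to 62.0 CPM, and F13a1, at 2.57 to 44.0 CPM, were low for cells labelled monocytic. Ly6c2, a gene of the gated Ly6C antigen, was at 367 to 799 CPM and Csf1r, the M-CSF receptor, at 93.1 to 205 CPM. The 8 neutrophil markers summed to 82240 to 103400 CPM in aged and 65440 to 89230 CPM in young mice. Of these 8, 5 were called higher in aged mice and none lower. The 7 classical monocyte markers in the table summed to 9288 to 13720 CPM in aged and 11090 to 15820 CPM in young mice. Most of it was Lyz2, a lysozyme that neutrophils also make, at 8532 to 15030 CPM. Of these 7, 1 was called higher and none lower. Of 6 tested markers of nonclassical monocytes 1 was called higher and 3 lower. Of 5 tested markers of promyelocytes and progenitors 4 were called higher and none lower. Young mice 5 and 6 stood apart from the other 4 young mice on the first principal component of all libraries, with more Mki67, a gene of cycling cells, at 674 and 598 CPM against 229 to 318 CPM, and less Retnlg, a gene of maturing neutrophils, at 2256 and 2328 CPM against 3718 to 4174 CPM. Mki67 was lower in every aged mouse than in every young mouse, at 63.5 to 173.5 CPM, and the 8 markers of cycling cells, of which 2 were called lower, summed to 366 to 810.3 CPM in aged and 676 to 1304 CPM in young mice. Aged mouse 1 stood apart on the second component and had the most C1qa, a macrophage gene, at 84.7 CPM against 5.17 to 29.4 CPM in the other 5 aged mice. The alignment files of all young mice carry lower numbers than those of all aged mice, so age and any batch that followed these numbers cannot be told apart. Across all genes tested, 4425 (45.4%) were called at an adjusted p under 0.05 by the quasi-likelihood test of edgeR, 22.4% of the genes higher and 23.0% lower in aged mice. Without scaling factors beyond the library total, 37.8% of the calls were higher, against 49.4% with them. Longer genes were lower in aged mice across the transcriptome, with a Spearman's rho of -0.48 between log2 fold change and exon length over the 9742 genes, which are not independent replicates.

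The genes lie on 6 mouse chromosomes, given here on mm10 as in the deposited table. Itgal (chr7:127296260-127335137, + strand, 31 merged exons), Itgam (chr7:128062640-128118491, + strand, 30 exons) and Itgax (chr7:128129568-128150657, + strand, 30 exons) are on chromosome 7, where Itgam and Itgax are 11.1 kb apart and a further β2 partner, Itgad, follows 23.3 kb after Itgax. Itga4 (chr2:79255426-79333114, + strand, 28 exons) and Cd44 (chr2:102811142-102901665, - strand, 19 exons) are on chromosome 2, Itgb2 (chr10:77530348-77565674, + strand, 16 exons) on chromosome 10 and Itgb1 (chr8:128685654-128733579, + strand, 16 exons) on chromosome 8. Itgb7 is on the - strand of chromosome 15 (chr15:102215995-102231935, 15 exons) and Selplg on the - strand of chromosome 5 (chr5:113817798-113830501, 2 exons). Merged exon length ran from 2604 bases in Selplg to 9832 bases in Itga4. Only Itga4 shared bases with another gene, Cerkl on the opposite strand, and the counting used strand.

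Promoter windows of 250 bases before the start were found in RefSeq for 6 of the 9 genes (build GRCm38.p6), Itgal, Itgb2 and Selplg being the others. Those of the neighbours Itgam and Itgax are shown because their transcripts differed widely in level, and that of Itga4 because its values separated the ages. Capitals mark GAGGAA or its reverse complement TTCCTC, letters that the myeloid transcription factor PU.1 is known to bind.
Itgam, chr7:128062390-128062639, + strand: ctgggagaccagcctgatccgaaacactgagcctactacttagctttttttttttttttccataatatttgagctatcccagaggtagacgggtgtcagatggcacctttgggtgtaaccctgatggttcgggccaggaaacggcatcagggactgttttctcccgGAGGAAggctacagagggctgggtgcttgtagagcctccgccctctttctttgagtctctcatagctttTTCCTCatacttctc
Itgax, chr7:128129300-128129549, + strand: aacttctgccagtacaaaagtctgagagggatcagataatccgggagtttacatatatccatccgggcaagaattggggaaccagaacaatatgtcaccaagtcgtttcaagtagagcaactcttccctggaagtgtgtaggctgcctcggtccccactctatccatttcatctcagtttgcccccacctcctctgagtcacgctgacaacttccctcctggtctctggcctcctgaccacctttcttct
Itga4, chr2:79255176-79255425, + strand: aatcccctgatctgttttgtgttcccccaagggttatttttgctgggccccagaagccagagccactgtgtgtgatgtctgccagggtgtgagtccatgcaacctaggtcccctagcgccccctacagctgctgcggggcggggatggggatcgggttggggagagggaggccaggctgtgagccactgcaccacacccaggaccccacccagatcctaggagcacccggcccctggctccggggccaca
The Itgam window holds these letters at 2 places, beginning 84 and 15 bases before the start, and the Itgax and Itga4 windows at none. Of 32851 windows of the same length, 23.3% hold them on either strand. The letters TGTGGT, bound by RUNX factors, occur once in Itga4, 60 bases before the start, and in 14% of all windows. GGGCGG, a GC box, occurs once in Itgam and once in Itga4, 47 and 114 bases before the start, and in 32.7% of all windows. TATAAA is in none of the 3 and in 12.4% of all windows. In the windows not shown, GAGGAA or TTCCTC is at 1 place in Itgb1, at 2 in Cd44 and at none in Itgb7, and GGGCGG is at 1 place in Itgb1. These matches are descriptions of the letters and were not measured as binding.

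To compare levels between genes, CPM were divided by exon length in kilobases. Itgb2 was the most abundant of the 9 at 798 ± 51.6 CPM per kb in young and 813 ± 69.5 CPM per kb in aged mice (SD, n = 6 each), and only 48 of the genes tested were above it over the 12 mice. Itgam came next at 721 ± 25.2 and 618 ± 63.5 CPM per kb. Cd44 at 291 ± 35.8 and 324 ± 33.8, Selplg at 154 ± 32.8 and 214 ± 41.2 and Itgal at 148 ± 9.65 and 132 ± 6.58 CPM per kb followed, all 3 above the 96th percentile of tested genes. Far lower were Itgb1 at 15.9 ± 1.44 and 14.8 ± 2.89, Itga4 at 15.6 ± 1.62 and 11.2 ± 0.738, Itgb7 at 8.31 ± 1.98 and 10.7 ± 3.07 and Itgax at 2.99 ± 0.63 and 3.10 ± 0.964 CPM per kb. The order by mean was the same in both ages. Neighbours in this order with overlapping ranges were Itgb2 with Itgam and Itgb1 with Itga4 in both ages, Selplg with Itgal in young mice and Itga4 with Itgb7 in aged mice. Within libraries Itgb2 was above Itgam in 6 of 6 aged and 5 of 6 young mice, Itgb1 above Itga4 in 5 of 6 aged and 4 of 6 young mice, and Selplg above Itgal in 4 of 6 young mice. Itga4 exceeded Itgb7 per kilobase in 6 of 6 young but in 2 of 6 aged mice. The abundant group of 5 genes and the group of Itgb1, Itga4, Itgb7 and Itgax did not overlap in any mouse.

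**Figure D1:**
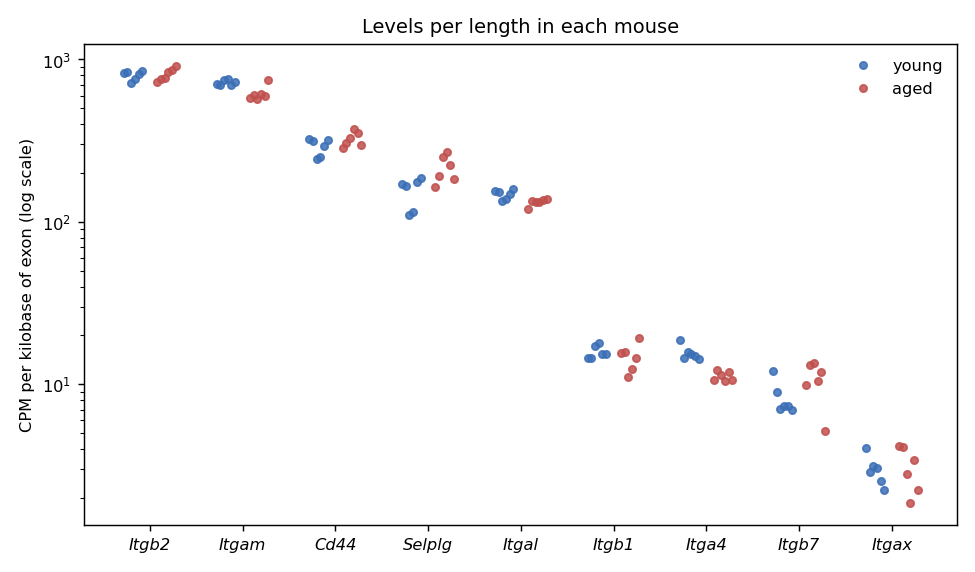
Levels of the 9 genes in CPM per kilobase of exon on a log axis, with 1 point per mouse, young mice in blue and aged mice in red. Itgb2, Itgam, Cd44, Selplg and Itgal lie at 109.9 CPM per kb or above and the other 4 genes at 19.3 CPM per kb or below.

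Between the ages, 1 of the 9 genes was called higher in aged mice (Selplg) and 3 were called lower (Itga4, Itgam and Itgal). These 4 calls stand beside 45.4% of all genes tested called, so the share is near the background. The median log2 fold change of the 9 was 0.03 against 0.01 for all genes tested, and their median absolute log2 fold change was 0.16 against 0.29. Itga4 alone had no overlap between the ages, where 21.8% of all genes tested had none. The cells were sequenced in bulk, so a smaller share of cells of 1 type and less RNA per cell cannot be told apart.

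**Figure D2:**
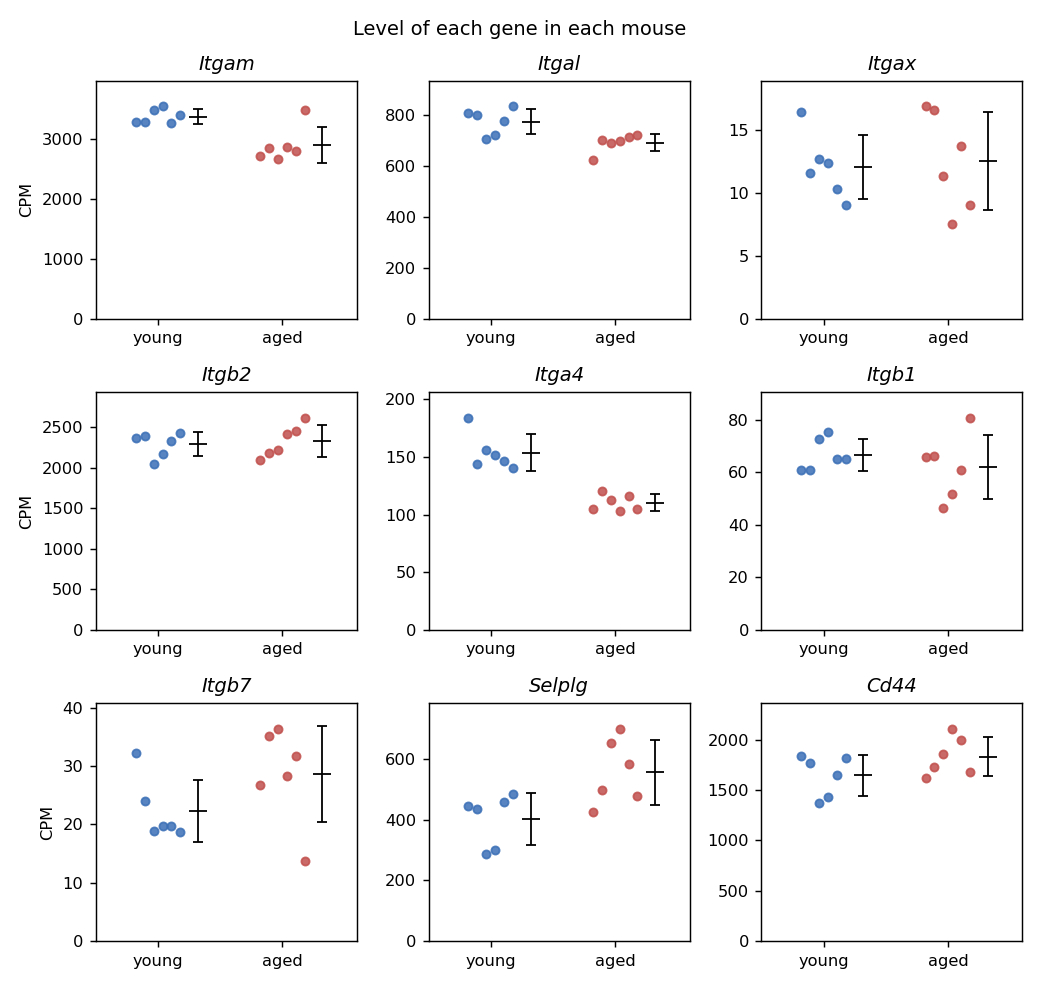
CPM of each gene on a linear axis from 0, with 1 point per mouse, blue for young and red for aged, and the mean ± SD of 6 mice in black. Itga4 is the only gene whose young and aged points are apart, and young mice 5 and 6 are the 2 lowest points of Selplg and Cd44.

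Among the β2 integrins, Itgam and Itgal fell slightly, whereas the shared chain Itgb2 and the α chain Itgax were not called. Itgam encodes the αM chain of Mac-1, the receptor for complement iC3b and fibrinogen. It measured 3269 CPM in the lowest young mouse, 3339 at the median and 3543 in the highest, and 2660, 2823 and 3481 CPM in aged mice. All aged mice but mouse 7 lay below every young mouse. The log2 fold change was -0.22 (SE 0.077, adjusted p = 0.0285, edgeR), a fall of 14.2%. The call was lost in 6 of 12 fits that left out 1 mouse (adjusted p of edgeR up to 0.068), and without aged mouse 7 it reached -0.28 (adjusted p = 0.0037, edgeR). The call was also lost with a GC correction (adjusted p = 0.0584), upper quartile scaling (0.0526) and no filter on low counts (0.0622, all by edgeR).

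Itgal encodes the αL chain of LFA-1, the main ICAM-1 receptor of leukocytes. Its values were 706, 788 and 834 CPM in young mice and 625, 699 and 721 CPM in aged mice (lowest, median and highest). Each aged mouse was below the young median, and 4 of the 6 were below every young mouse. The log2 fold change of -0.16 (SE 0.064, adjusted p = 0.0489, edgeR) was barely past the threshold and was lost in 9 of 12 fits without 1 mouse, with adjusted p up to 0.105 in edgeR. Young mice 5 and 6 had the lowest Itgal of their age, and without both it was -0.24 (adjusted p = 0.00681, edgeR).

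Itgb2, the CD18 chain without which no β2 integrin reaches the surface, measured 2041, 2345 and 2421 CPM in young and 2091, 2309 and 2615 CPM in aged mice, with the ages overlapping. The log2 fold change was close to 0, at 0.03 (95% interval -0.14 to 0.19, adjusted p = 0.806, edgeR). Itgax, the αX chain that marks dendritic cells and some macrophages, was the lowest of the 9, with 54 to 121 counts per young library and 81 to 151 per aged library. It measured 8.99, 11.9 and 16.4 CPM in young and 7.49, 12.5 and 16.8 CPM in aged mice, and the interval of its log2 fold change was wide, from -0.37 to 0.47 around 0.05 (adjusted p = 0.85, edgeR). The sign of the change in Itgb2 and Itgax differed between settings.

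Itgad, the αD chain and the neighbour of Itgax, is no member of the set but completes the β2 family. It measured 0.857 to 2.14 CPM in young mice and 1.2, 6.97 and 65.0 CPM (lowest, median and highest) in aged mice, of which 5 lay above every young mouse. It rose by 3.56 on the log2 scale (SE 0.844, adjusted p = 0.00351, edgeR) and by 2.39 without aged mouse 1 (adjusted p = 0.00393, edgeR). By limma-voom it was not called (2.37, adjusted p = 0.0993). With 4 to 21 counts per young library, Itgad passed the filter through the aged mice and was not tested where 10 counts were required in every mouse or libraries were thinned. Its log2 difference was 4.35 with only the aged mice before the gap in alignment numbers and 1.80 with those after it (adjusted p = 8.47e-04 and 0.0191, edgeR). The 7 tested markers of resident macrophages were also all called higher, and their sum was 380 to 538 CPM in young and 585 to 1405 CPM in aged mice, highest in aged mouse 1, which also had the most Itgad. Their part in the result was not tested. Of the α transcripts that pair with Itgb2, counted per length, Itgam made up 82.6 ± 1.29% in young and 81.5 ± 1.35% in aged mice, Itgal 17% ± 1.30 and 17.5 ± 1.21%, Itgax 0.343 ± 0.074% and 0.415 ± 0.142% and Itgad 0.0392 ± 0.013% and 0.591 ± 0.851% (SD, n = 6 each). Aged mouse 1 set the last mean, at 2.28% against a mean of 0.254% in the other 5.

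The α4 chain Itga4 fell most clearly of the 9. Itga4 encodes the subunit that pairs with β1 as VLA-4 and with β7 as LPAM-1. Its values were 141, 149 and 184 CPM in young mice and 103, 109 and 120 CPM in aged mice (lowest, median and highest). Every aged mouse lay below every young mouse, as for 12.1% of all genes tested, while the reverse held for 9.68%. The log2 fold change was -0.48 (SE 0.073, 95% interval -0.63 to -0.32, adjusted p = 1.96e-04, edgeR), a fall of 28.2%. It was called in all 12 fits without 1 mouse, between -0.50 and -0.42, and at -0.50 without young mice 5 and 6 (adjusted p = 6.16e-04, edgeR). With 9832 bases Itga4 is the longest of the 9 transcripts, and the 500 tested genes nearest to it in length had a median log2 fold change of -0.47. After the correction for gene length it stood at 0.01 (adjusted p = 0.925, edgeR).

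Neither β partner of Itga4 was called. Itgb1, the β1 chain shared by most integrins that bind extracellular matrix, measured 60.9, 65.0 and 75.4 CPM in young and 46.3, 63.3 and 80.8 CPM in aged mice, the aged mice spanning the whole young range. The log2 difference of Itgb1 was -0.11 (95% interval -0.35 to 0.14, adjusted p = 0.473, edgeR). Itgb7, the β7 chain of the gut-homing integrin, measured 18.7, 19.8 and 32.2 CPM in young mice and 13.8, 29.9 and 36.4 CPM in aged mice. The lowest of all 12 values belonged to aged mouse 7, while the other 5 aged mice were above the young median. The log2 fold change of Itgb7 was 0.38 (95% interval -0.06 to 0.81, adjusted p = 0.141, edgeR), and without aged mouse 7 it was 0.53 and called (adjusted p = 0.00723, edgeR).

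Selplg and Cd44, the members that are no integrins, were both higher by mean in aged mice, and Selplg was called. Selplg encodes PSGL-1, the mucin that binds P-selectin on platelets and endothelium. It measured 286, 440 and 483 CPM in young mice and 425, 539.8 and 700.3 CPM in aged mice (lowest, median and highest). The lowest young values were those of mice 5 and 6, at 286 and 300.1 CPM, and the other 4 young mice lay between 434 and 483 CPM, within the aged range. Selplg rose by 0.47 on the log2 scale (SE 0.150, 95% interval 0.15 to 0.79, adjusted p = 0.0184, edgeR), or 38.7%. Without young mice 5 and 6 the log2 fold change was 0.27 and not called (adjusted p = 0.0974, edgeR), whereas leaving out any 1 mouse kept the call. With only the aged mice before the gap in alignment numbers Selplg was at 0.39 and not called (adjusted p = 0.112, edgeR), and Itgb7 was then called at 0.58 (adjusted p = 0.0239, edgeR).

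Cd44, the receptor for hyaluronan that is linked to actin by ezrin, radixin and moesin, measured 1374, 1709 and 1839 CPM in young and 1617, 1791 and 2107 CPM in aged mice. Again the lowest were young mice 5 and 6, at 1374 and 1425 CPM, and the other 4 young mice overlapped with the aged ones. The log2 fold change was 0.15 (95% interval -0.05 to 0.36, adjusted p = 0.199, edgeR) and 0.03 without both mice (adjusted p = 0.806, edgeR). The values of Mki67 and Retnlg given above move with the low Selplg and Cd44 of young mice 5 and 6, and their part in the result was not tested.

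Gene length bears on these calls. After a correction for the trend of each library with exon length, no member was called lower by edgeR (0 also at an unadjusted p under 0.05), where 15.9% of all genes tested were, and 2 were called higher, where 17.3% were. Itgam moved to -0.08 (adjusted p = 0.469) and Itgal to 0.03 (adjusted p = 0.834), while Selplg stayed at 0.47 (adjusted p = 0.0349) and Cd44 moved to 0.38 and was called (adjusted p = 0.0232, all by edgeR). The 500 tested genes nearest in length had median log2 fold changes of -0.16 for Itgam, -0.20 for Itgal, -0.25 for Cd44 and 0.06 for Selplg. The correction removes any difference that follows length, and whether that trend came from the samples or from the libraries was not tested. Without young mice 5 and 6, 14.1% of all genes tested were called higher and 17.9% lower, and among the members Itga4 and Itgal were called lower and none higher by edgeR (1 higher, Selplg, at an unadjusted p under 0.05).

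**Figure D3:**
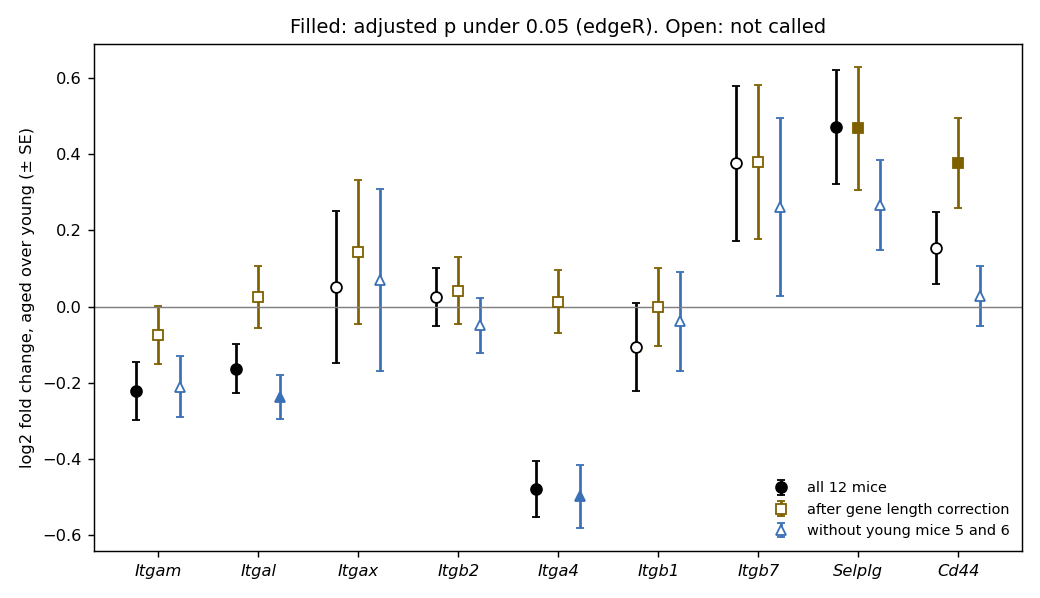
Log2 fold change of aged over young mice ± SE for each gene in 3 edgeR fits, with all 12 mice (black circles), after the gene length correction (brown squares) and without young mice 5 and 6 (blue triangles), filled where the adjusted p was under 0.05. Itga4 moves from -0.48 to 0.01 with the length correction, and Selplg from 0.47 to 0.27 without the 2 young mice.

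**Figure D4:**
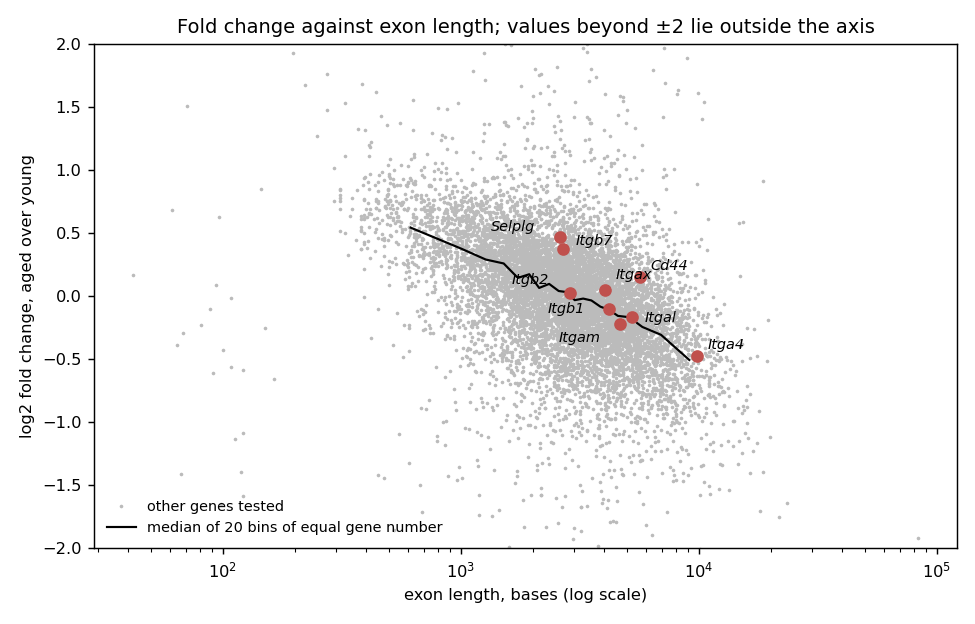
Log2 fold change of each tested gene (grey) against exon length in bases on a log axis, with the 9 genes in red and the median of 20 bins of equal gene number as a line. Itga4, Itgb1, Itgb2 and Itgal lie close to the line, and Selplg, Cd44 and Itgb7 lie above it.

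Because the chains of an integrin are found in pairs, the log2 ratio of counts between partners was compared within each library, where library size cancels. In all, 8 ratios were tested with the exact two-sided permutation test over mice, for which 0.00216 is the smallest p that regroupings of 6 against 6 mice can give, with Benjamini-Hochberg adjustment over the 8. Relative to their shared chain Itgb2, both abundant α chains were lower in aged mice. How many ratios between other genes separate the ages was not counted, and 21.8% of single genes tested had no overlap. The Itgam/Itgb2 log2 ratio was 0.46 to 0.77 in young and 0.19 to 0.41 in aged mice, without overlap, a difference of -0.25 (exact p = 0.00216, adjusted p = 0.00866). The Itgal/Itgb2 log2 ratio was -1.59 to -1.53 in young mice and -1.86 to -1.63 in aged mice, again without overlap, a difference of -0.19 (exact p = 0.00216, adjusted p = 0.00866). Young mice 5 and 6 had the highest Itgam/Itgb2 of all mice, and in Itgal/Itgb2 they were the highest and the lowest of a narrow young range, with an SD of 0.02 against 0.08 in aged mice. Both differences were past the threshold in all 12 repeats without 1 mouse, and without young mice 5 and 6 Itgam/Itgb2 differed by -0.16 (exact permutation adjusted p = 0.0381). After the length correction they were -0.12 (exact permutation adjusted p = 0.485) and -0.01 (0.87).

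The Itgax/Itgb2 ratio differed by -0.01 (exact p = 0.963), Itgal/Itgam by 0.06 (exact p = 0.361) and Itgax/Itgam by 0.24 (exact p = 0.377), all with overlap. Among the α4 integrins, Itga4/Itgb7 was 2.51 to 3.05 in young and 1.63 to 2.92 in aged mice on the log2 scale. Aged mouse 7 was at 2.92, inside the young range, and the other 5 aged mice were below it. The difference was -0.80 (exact p = 0.0108, adjusted p = 0.0289), and after the length correction -0.32 (exact permutation adjusted p = 0.485). It was not past the threshold in 6 of 12 repeats without 1 mouse (without aged mouse 1, 2, 5 or 6 or young mouse 5 or 6, exact permutation adjusted p 0.0519 to 0.0577), nor without young mice 5 and 6 together (0.0952). Itga4/Itgb1 differed by -0.35 (exact p = 0.0346, adjusted p = 0.0693) and Itgb7/Itgb1 by 0.45 (exact p = 0.21, adjusted p = 0.336). Summed per length, Itgb1 and Itgb7 transcripts were 1.55 ± 0.078 times Itga4 in young mice, from 1.42 to 1.65, and 2.27 ± 0.1 times Itga4 in aged mice, from 2.15 to 2.40 (SD, n = 6 each). These ranges did not overlap, where 21.8% of single genes tested had no overlap. Aged mouse 7, with the most Itgb1 and the least Itgb7 of its age, was within the range of the other aged mice. The α partners of Itgb2, summed in the same way, were 1.10 ± 0.090 times Itgb2 in young and 0.934 ± 0.053 times in aged mice. These sums were not corrected for the length trend, with which the fall of Itga4 was lost.

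To see which members varied together, log2 CPM were correlated over the 12 mice after removing the mean of each age. Selplg and Cd44 had an r of 0.93, Itgal and Itgb2 of 0.84, Itgal and Cd44 of 0.78, Itgam and Itgb1 of 0.77 and Itgal and Selplg of 0.76, whereas Itgam and Itgb7 had an r of -0.84 and Itgb1 and Selplg of -0.75. These values describe 12 libraries that share their depth, composition and the pair of young mice that stood apart. Among the 6591 genes that averaged 10 CPM or more, the genes most like each member were Cast and Actn4 for Itgam (r = 0.95 each), Itprip and Mzt1 for Itgal (0.94 and 0.92), Klf11 and Prkag2 for Itgax (0.92 and 0.84), and Add1 and Serpinb1a for Itgb2 (0.96 and 0.93). Those most like Itga4 were Zfp263 and Dapp1 (0.88 and 0.84). Itgb1 was most like Rrm2, the small subunit of ribonucleotide reductase, and Nusap1, a protein of the mitotic spindle (0.97 each), and the part of the cycling markers given above in the levels of Itgb1 was not tested. Itgb7 was most like Slc35c2 and LOC100038947 (0.93 and 0.92), Selplg like Lasp1 and Sh3glb1 (0.99 each) and Cd44 like Plek (0.98). Each value was picked as the highest among 6591 genes over 12 libraries, where chance alone can give high values, and no p-value was computed.

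**Figure D5:**
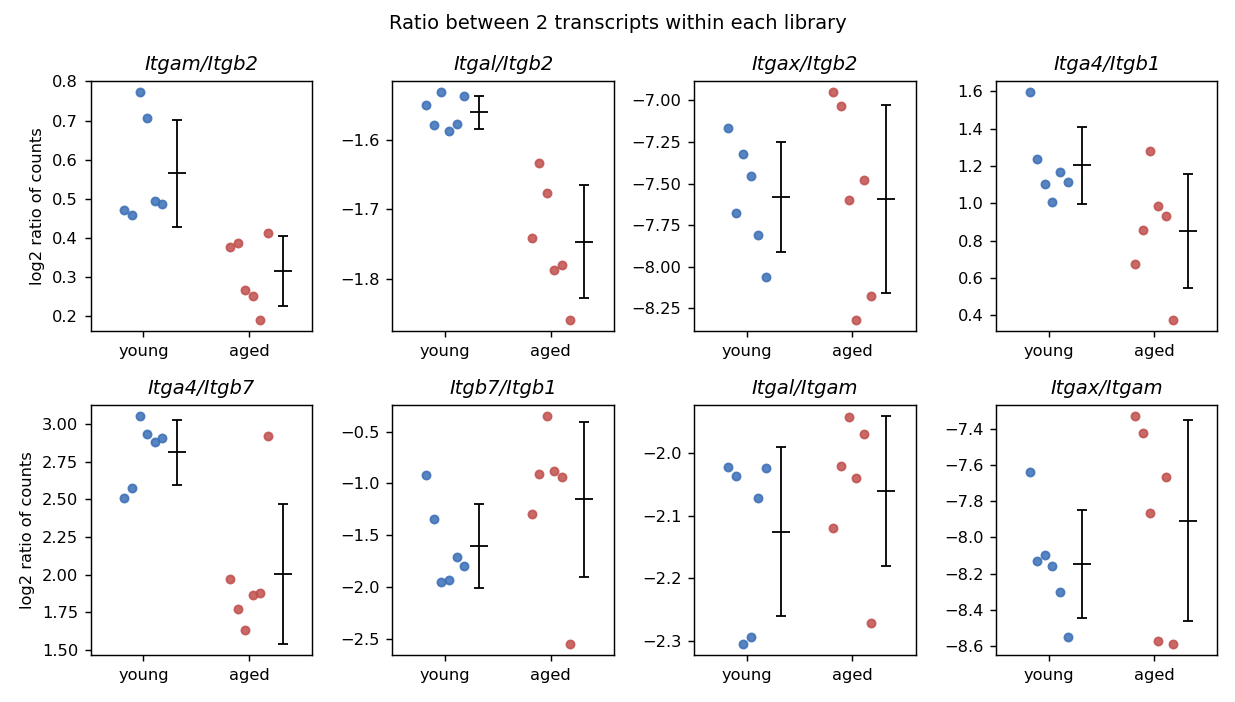
Log2 ratio of counts between 2 transcripts in the same library, with 1 point per mouse, blue for young and red for aged, and the mean ± SD of 6 mice in black, each panel on its own axis. Itgam/Itgb2 and Itgal/Itgb2 show no overlap between the ages, and in Itga4/Itgb7 aged mouse 7 is the 1 aged point among the young ones.

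Around these receptors, 6 lists of adhesion genes held 106 further genes, of which 75 were tested, 20 called higher and 19 called lower. Those counts, 26.7% and 25.3% of the tested genes, stand beside 22.4% and 23.0% of all genes tested. Of 19 other integrin subunits 8 were tested, with Itgad higher and 2 lower. Itga8, the α8 partner of β1, fell by 1.30 (SE 0.247, adjusted p = 8.60e-04, edgeR) from 11.1 ± 3.04 to 4.55 ± 1.51 CPM without overlap, and Itga6, the laminin-binding α6 chain, was called at -0.28 (adjusted p = 0.0352, edgeR) but not after the length correction (-0.17, adjusted p = 0.173, edgeR). After that correction 2 of the list were higher and 1 lower, beside 17.3% and 15.9% of all genes tested. Itga9, Itgb5, Itgav, Itgb3 and Itga5 were not called with all mice, Itga9 being called higher after the length correction (1.72, adjusted p = 0.0272, edgeR). Itga9 was low, at 1.01 ± 0.179 CPM in young and 2.75 ± 2.77 CPM in aged mice, with overlap and an aged SD above the mean. Itgb3, at 170 ± 25.3 CPM in young and 176 ± 23.3 CPM in aged mice, was the most abundant of the list.

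Of the genes that activate integrins from inside the cell, 4 of 18 tested were called higher and 6 lower, beside 22.4% and 23.0% of all genes tested. After the length correction 3 were higher and 2 lower, beside 17.3% and 15.9% of all genes tested. Rap1b, the small GTPase that recruits talin, rose by 0.52 (SE 0.102, adjusted p = 0.00107, edgeR) from 525 ± 80.7 to 754 ± 74.6 CPM without overlap. Cyth1, which binds the tail of β2, had the largest fall at -0.60 (SE 0.095, adjusted p = 2.35e-04, edgeR), and Fyb, the adaptor ADAP, had the smallest p, at -0.56 on the log2 scale (SE 0.074, adjusted p = 6.71e-05, edgeR). Tln1, talin itself, was 2524 ± 126 CPM in young and 1715 ± 352 CPM in aged mice, and its log2 difference of -0.56 (adjusted p = 0.00132, edgeR) was -0.15 after the length correction, whereas Fyb stayed at -0.56 and Cyth1 at -0.56. Fermt3, the kindlin of blood cells, was not called (0.08, adjusted p = 0.274, edgeR), and Tln2 and Fermt2 were not tested.

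Of the genes that carry the signal of a bound integrin into the cell, 4 of 20 tested were called higher and 8 lower, beside the same 22.4% and 23.0%. After the length correction 1 was higher and 4 lower, beside 17.3% and 15.9% of all genes tested. Tyrobp, the adaptor DAP12, had the largest rise at 0.53 (adjusted p = 0.0109, edgeR), which was 0.09 after the length correction. Syk, the kinase recruited by Tyrobp and Fcer1g, had the largest fall and the smallest p, at -0.52 (SE 0.084, adjusted p = 2.87e-04, edgeR), from 787 ± 71.7 to 548 ± 60.1 CPM without overlap, and was at -0.32 after the length correction. Src, Ptk2, Parva and Bcar1 were not tested.

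Of the counter-receptors and matrix ligands that these members bind, 6 of 12 were tested and 3 were called, all higher, beside 22.4% of all genes tested called higher and 23.0% lower. None was lower by edgeR, DESeq2 or limma-voom, nor at an unadjusted p under 0.05. Icam1, the ligand of Itgal and Itgam with Itgb2, was 3.69 ± 0.428 CPM in young and 7.59 ± 3.03 CPM in aged mice without overlap, an increase of 1.04 on the log2 scale (SE 0.221, adjusted p = 0.00175, edgeR). Vcam1, the ligand of Itga4 with Itgb1 and also 1 of the macrophage markers, was 17.2, 20.4 and 27.2 CPM in young mice and 17.3, 44.2 and 301 CPM in aged mice (lowest, median and highest), with overlap, an increase of 2.0 on the log2 scale (SE 0.558, adjusted p = 0.00936, edgeR). Without aged mouse 1, its highest, the increase was 1.02 (adjusted p = 0.0143, edgeR), and by limma-voom Vcam1 was not called (adjusted p = 0.0743). Fn1, Spp1 and Icam2 were not called. The enzymes that glycosylate selectin ligands such as PSGL-1 gave 5 called higher and none lower of 12 tested by edgeR, with 1 lower at an unadjusted p under 0.05, beside the 22.4% and 23.0% of all genes tested. By DESeq2 none and by limma-voom 1 was called lower. St3gal6, a sialyltransferase, had the largest rise at 0.58 (adjusted p = 0.0241, edgeR) and C1galt1, which starts core 1 O-glycans, the smallest p at 0.25 (adjusted p = 0.011, edgeR), while Fut7, the fucosyltransferase of leukocyte selectin ligands, was not called (0.14, adjusted p = 0.276, edgeR). After the length correction 3 of the enzymes were higher, beside 17.3% of all genes tested, and St3gal6 (0.39, adjusted p = 0.125) and C1galt1 (0.17, adjusted p = 0.102) were no longer called by edgeR. Without young mice 5 and 6 none of these enzymes was called by edgeR, with 3 higher at an unadjusted p under 0.05, where 14.1% of all genes tested were called higher. Tpst1 was not tested.

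Of the linkers, hyaluronan enzymes and sheddases of CD44, 3 of 11 tested genes were called higher and 3 lower, beside 22.4% and 23.0% of all genes tested. After the length correction 3 were higher (Msn, Cd74 and Adam10) and 1 lower (Has2), beside 17.3% and 15.9% of all genes tested. Srgn, Rdx and Nf2 were then no longer called. Msn, the moesin that ties CD44 and PSGL-1 to actin, had the smallest p and rose by 0.35 (SE 0.091, adjusted p = 0.00647, edgeR) from 1442 ± 180 to 1834 ± 148 CPM without overlap. Cd74, the invariant chain that forms a receptor with CD44 and is also expressed by cells that present antigen, had the largest rise at 2.15 (adjusted p = 0.00777, edgeR), from 35.7 to 54.6 CPM in young mice and from 36.3 to 662 CPM in aged mice, with overlap. Aged mouse 1 was again the highest, and without it the rise was 1.14 (adjusted p = 0.0145, edgeR), while limma-voom did not call it (adjusted p = 0.0569). Of the 8 dendritic cell markers 3 were tested, with 1 called higher and 1 lower. The 8 summed to 13.8 to 20.9 CPM in young and 10.7 to 167 CPM in aged mice, and their part in the result was not tested. Has2, a hyaluronan synthase, had the largest fall at -0.54 (adjusted p = 0.0109, edgeR), at 11.5 ± 2.16 CPM in young and 7.83 ± 1.49 CPM in aged mice. Hmmr, Mmp9, Ezr, Adam17 and Adam10 were not called with all mice, Adam10 being called higher after the length correction (0.20, adjusted p = 0.041, edgeR). Mmp9 was the most abundant of the list at 8117 ± 1324 CPM in young and 9681 ± 1067 CPM in aged mice.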

How the data were processed

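Total RNA of sorted M-MDSCs was sequenced as stranded paired-end libraries. The authors deposited raw counts, whole numbers of fragments per gene, made with featureCounts 2.0.0 on an mm10 annotation, counting reverse-stranded pairs. Fragments below a mapping quality of 60 were discarded, and the aligner is not given in the sources used here. The exon length in the same table was used as deposited. Each of the 12 columns was matched to a mouse by name, and no 2 libraries of the same age agreed within sampling noise.

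Counts were filtered with filterByExpr, scaled with TMM factors and tested with the edgeR 4.0.16 quasi-likelihood test in R 4.3.3, with Benjamini-Hochberg adjustment over all 9742 genes. This was tested on simulated data with known changes. CPM refer to the scaled totals. Ratios were log2 of counts plus 0.5, tested with exact permutation tests over mice. The length correction subtracted, per library, a natural spline with 5 degrees of freedom of log2 CPM deviations on log2 exon length. Other alternatives were DESeq2 1.42.0, limma-voom (limma 3.58.1), other scalings and filters, thinning, a GC correction and leaving out mice. Depth limits chiefly Itgax and Itgad. The labels name mice but not the days of sorting. A p-value sets the difference between the ages against the spread within each age. A batch that followed age would enter that difference.

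All members were described in full. From each list, the called genes with the largest rise and fall, the gene with the smallest p-value, and members not called or not tested where 5 or fewer were named. Itgad, Tln1, Fermt3, Fut7, Itgb3 and Mmp9 were named partly after their values were seen. The second gene most like Cd44 is not reported here. The members and lists were chosen with earlier results of these data known.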

Additional observations from a re-analysis of the deposited data

Results flagged for a closer look

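In 36 groups of 6 mice examined for a single value far from the others, 5 had one, where chance gives about 1 in 20. Itgam in aged mouse 7 was the highest of its age at 3481 CPM. Itgal in aged mouse 1 was the lowest of its age at 625 CPM. Itgad in aged mouse 1 was the highest of its age at 65.0 CPM. The Itga4/Itgb7 log2 ratio of counts in aged mouse 7 was the highest of its age at 2.92. Itga4 in young mouse 1 was the highest of its age at 184 CPM.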

How the results depend on the processing

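Itga4 was called lower in all alternatives except the length correction (log2 fold change 0.012). Counts of called members, 1 higher and 3 lower by edgeR with all mice, were 2 and 0 with the length correction (0 lower also at an unadjusted p under 0.05). With the upper quartile scaling, without a filter on low counts, and with only the aged mice after the gap in alignment numbers, 1 member was lower. Of all genes tested, 2011 of 9742, 2150 of 15827 and 1493 of 9943 were lower there, in the same order. Without young mice 5 and 6, an alternative chosen after seeing the data, 0 were higher (1 at an unadjusted p under 0.05, edgeR). Without 1 mouse, 1 to 2 were higher and 1 to 3 lower. The other adhesion genes, 20 higher and 19 lower, gave 11 higher with only the aged mice before the gap, where 1654 of 10026 genes tested were higher. They gave 10 higher without young mice 5 and 6, where 14.1% of all genes tested were higher. With the length correction 8 of them were lower, where 15.9% of all genes tested were.

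Same-numbered young and aged mice did not vary together (correlations -0.25 to -0.07 over numbers 1, 2, 5 and 6), and the main test did not pair them. So few correlations cannot exclude a shared origin of such mice. With the replicate block over these 8 mice, 0 members were higher (1 at an unadjusted p under 0.05, edgeR), 1 was lower, 10 other adhesion genes were higher and Itgax was at -0.027. Of all 9821 genes tested 1586 were then higher and 1860 lower. The same 8 mice without the block gave 1 higher, 2 lower and 16 other adhesion genes higher, with Itgax at 0.028. Of all 9821 genes tested 2088 were higher and 2306 lower without it. Selplg lost its call under the block (adjusted p = 0.0766, edgeR), as did Itgam (adjusted p = 0.0825, against 0.0154 without the block, edgeR). No mouse correlated best with its own number.

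Signs also changed elsewhere. Itgal was at 0.025 with the length correction. Itgax was at -0.0034 by limma-voom, -0.032 without TMM factors and -0.24 with the aged mice after the gap, and -0.052 to 0.17 without 1 mouse. Itgb2 was at -0.059 without TMM factors, -0.016 with the GC correction, -0.083 with the aged mice before the gap and -0.049 without young mice 5 and 6, and -0.0059 to 0.055 without 1 mouse.

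For log2 ratios, the length correction gave -0.12 for Itgam/Itgb2, -0.012 for Itgal/Itgb2, 0.064 for Itgax/Itgb2, 0.029 for Itga4/Itgb1 and -0.32 for Itga4/Itgb7. The aged mice before the gap gave -0.22, -0.12, 0.39 and -1.02 for Itgam/Itgb2, Itgal/Itgb2, Itgax/Itgb2 and Itga4/Itgb7, and those after it -0.28 for Itgam/Itgb2, -0.25 for Itgal/Itgb2, -0.59 for Itga4/Itgb7 and -0.13 for Itgax/Itgam. In both subsets Itgam/Itgb2 and Itgal/Itgb2 had an adjusted p of 0.0635, at the smallest exact p that 3 aged mice allow before adjustment. Without young mice 5 and 6, Itgax/Itgb2 was 0.085, Itga4/Itgb7 -0.71 (adjusted p = 0.0952, exact test) and Itgal/Itgam -0.022. Without 1 mouse, Itgax/Itgb2 was -0.14 to 0.13, Itga4/Itgb1 -0.44 to -0.26 (exact adjusted p 0.0115 to 0.139, past the threshold without aged mouse 4), Itga4/Itgb7 -0.99 to -0.73 (exact adjusted p up to 0.0577, not past the threshold in 6 of 12 repeats) and Itgb7/Itgb1 0.29 to 0.73, the last past the threshold without aged mouse 7 (exact adjusted p = 0.026). The cause of these changes was not tested.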
